A study of Mus musculus with 6 samples.

Results

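The genes of the LC3 and GABARAP proteins and of the autophagy cargo receptors that bind them were examined in neonatal haematopoietic progenitors that lack Atg5. The members are 10 genes taken by symbol, 5 of the Atg8 family (Map1lc3a, Map1lc3b, Gabarap, Gabarapl1 and Gabarapl2) and 5 receptors (Sqstm1, Nbr1, Optn, Calcoco1 and Tax1bp1), out of 20778 genes tested. Every probe that carries one of these gene names was taken, which gave 27 of the 56605 probes on the array. LSK cells (lineage-, Sca1+ and cKit+), the bone marrow fraction that holds haematopoietic stem cells and early progenitors, were sorted from C57BL/6 mice aged P6 to P8 in 3 control samples (Atg5w/w;VaviCre+) and 3 Atg5f/f;Vav samples (Atg5f/f;VaviCre+). Both groups therefore carry Vav-iCre, whose promoter drives Cre recombinase in haematopoietic cells, and differ in whether Atg5 is flanked by loxP sites. RNA of each sample was labelled with Cy3 and hybridised to 1 array of a 1-colour Agilent design, on which each 60-base probe gives 1 brightness that depends on how much of its transcript is present. The sources used here do not say whether a sample was 1 mouse or a pool, so n and SD refer to arrays and the p-values measure the spread between arrays. All 6 arrays lay on 1 slide, with the control arrays in row 1 and the Atg5f/f;Vav arrays in row 2, so that a difference by row cannot be told apart from one by genotype.

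In macroautophagy, a membrane grows around cytoplasmic material and closes into an autophagosome, which then fuses with lysosomes. Atg5, joined to Atg12 and bound to Atg16l1, attaches the small ubiquitin-like proteins of the Atg8 family to phosphatidylethanolamine in that membrane, and cargo receptors hold ubiquitinated proteins, damaged mitochondria or other cargo to the lipidated Atg8 proteins through an LC3-interacting region. Receptors such as p62, the product of Sqstm1, are themselves degraded with their cargo, and an array measures only their RNA.

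To show what the array read, the sequence of 1 probe that passed the test is given for 4 of the 5 receptors, each 60 bases, 5′ to 3′, in lower case with no part marked.
Optn A_51_P245485: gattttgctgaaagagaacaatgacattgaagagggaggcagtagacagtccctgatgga
Sqstm1 A_55_P2069714: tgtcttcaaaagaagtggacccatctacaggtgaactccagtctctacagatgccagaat
Tax1bp1 A_51_P403277: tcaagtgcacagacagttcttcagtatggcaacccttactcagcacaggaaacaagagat
Nbr1 A_55_P2627357: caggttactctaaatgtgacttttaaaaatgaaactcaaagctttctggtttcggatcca
They come from the array's own files, and their place in exons was not read from an annotation here. On mm9, the build of the array design, the Optn probe spans chr2:4945178-4948201 on the minus strand, a stretch of 3024 bases, so that it bridges a gap in the genome. The Sqstm1 probe lies at chr11:50015985-50016044 on the minus strand, from base 1090 of its transcript. The Tax1bp1 probe spans chr6:52707665-52708208 on the plus strand, from base 2093 of its transcript, and the Nbr1 probe lies at chr11:101417513-101417572 on the plus strand, from base 503. None of the 27 member probes shared a run of 20 bases with a probe of another gene name.

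Values are log2 signal relative to each array's 75th percentile, so that 0 is the brightness at that percentile, and groups were compared only within a probe. Optn rose about 7-fold in Atg5f/f;Vav LSK cells, and Calcoco1 was lower at its brightest probe. The call of Calcoco1 was lost when any 1 control array was left out, and its other probe did not pass. None of the 5 Atg8 family genes passed the test, although Gabarapl1 did after quantile normalisation. With each gene represented by its brightest probe, 1 of the 10 genes was higher, 1 was lower and 8 did not pass an adjusted p of 0.05 (limma, Benjamini-Hochberg adjustment over all 32074 probes tested). Over all 20778 genes, 34.1% passed, 18.7% higher and 15.3% lower. For 4 of the 10 members all arrays of one group lay above all of the other, against 55.9% of all genes. The median log2 difference of the members was 0.01 and that of all genes -0.03. The difference was smaller in size than the median of all genes, 0.35, for 8 of the members.

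Counted by probe, 23 of the 27 were well above background on at least 3 arrays and were tested, and 3 were well above background on no array. Of the 23, 4 were higher, 2 lower and 17 did not pass, against 34.4% called among all probes (17.3% higher and 17.1% lower). Of the calls over all probes 50.3% were higher, and 25.0% with the percentile taken over probes detected on all arrays. The groups did not overlap at 12 of the 23 probes, against 55.4% of all probes. The 6 that passed belonged to Optn (both probes), Calcoco1, Sqstm1, Tax1bp1 and Nbr1 (1 probe each), all of them receptors. Leaving out control replicate 1 or 2 cut the calls over all probes from 11024 to 330 and 251, and no member gene passed in either case. In bulk RNA, a change in the share of one cell type and a change in its RNA per cell cannot be told apart.

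**Figure D1:**
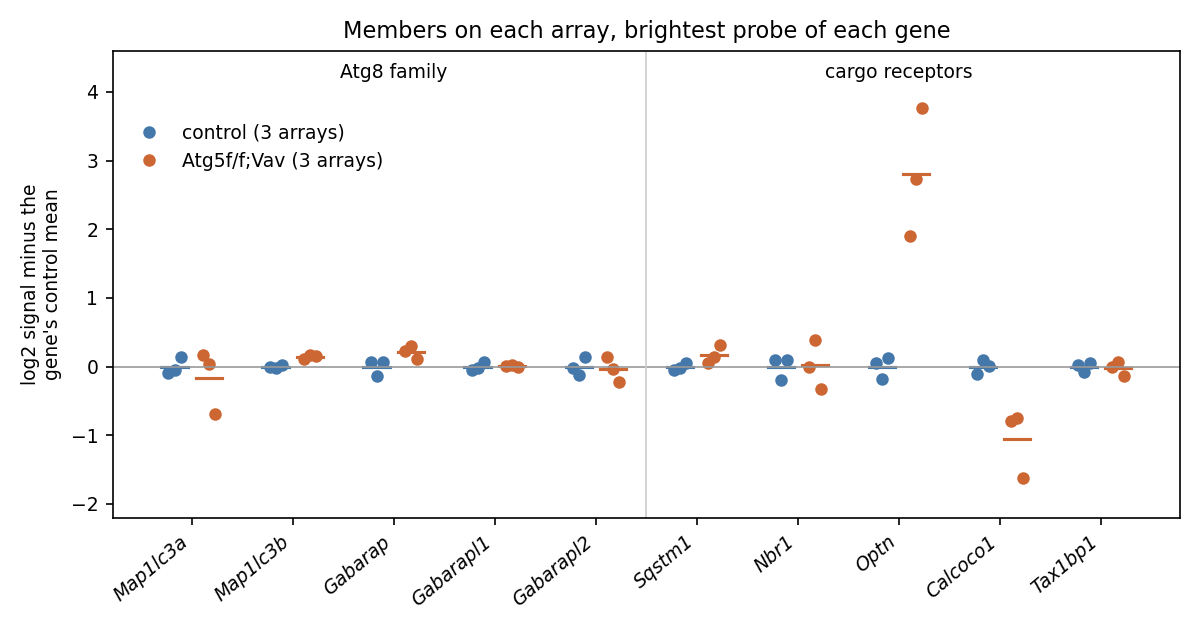
Log2 signal of each member on each array, by its brightest probe, drawn as the difference from the gene's control mean; points are arrays (3 control, 3 Atg5f/f;Vav) and short lines are group means. The Atg5f/f;Vav arrays lie far above the controls for Optn and below them for Calcoco1, while the means of the other 8 genes are within 0.21 of the control mean.

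Before the members are described in turn, 2 checks of the samples are given. The Atg5 probe read 1.10, 0.93 and 1.06 in control and 1.46, 1.51 and 1.74 in Atg5f/f;Vav samples, higher by 0.54 (SE 0.12, adjusted p = 0.0209, limma). The sources used here do not say whether that probe, from base 2251 of the transcript, lies in the deleted part, so it does not check the labels. The adjusted p of Atg5 was 0.0727 without control replicate 1 and 0.0836 without control replicate 2, and the difference was 0.33 with the percentile over probes detected on all arrays (adjusted p = 0.0447). All 10 LSK markers were well above background on all 6 arrays, among them Kit, Ly6a (Sca1) and Cd34. Control replicate 1 stood apart from the other controls in some stromal genes. Col1a1, a collagen of bone and connective tissue, was at -4.14 there and at 3.23 and 2.95 on the other control arrays, while the Atg5f/f;Vav arrays read -5.23, -5.16 and -5.49. Col1a2, Sparc and Pdgfrb were also lower on control replicate 1 than on the other controls. Cxcl12 was higher there (-0.59, against -2.19 and -3.12), and Lepr lay between the other controls (2.77, against 3.12 and 2.44). Control replicate 3 stood apart in some blood cell genes. Hba-a1 was lower on it (7.72, against 8.90 and 8.84 on control replicates 1 and 2), and Ctsg was higher (4.46, against 2.72 and 2.60).

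Of the LC3 genes, whose products coat the growing membrane, Map1lc3b read at its brightest probe 3.55, 3.53 and 3.59 in control and 3.67, 3.72 and 3.71 in Atg5f/f;Vav samples. All 3 Atg5f/f;Vav arrays were above all 3 controls, but the difference of 0.14 did not pass (SE 0.10, 95% interval -0.09 to 0.37, adjusted p = 0.28). Its second probe, A_52_P563475, read 1.82, 1.61 and 1.63 in control and 1.97, 1.86 and 1.88 in Atg5f/f;Vav samples, again without overlap (difference 0.22, adjusted p = 0.163; 0.012 to 0.29 over 14 alternatives). A probe for a separate Ensembl transcript model of Map1lc3b, A_55_P2715241, went the other way, from -0.83, -0.91 and -0.65 to -1.29, -1.05 and -1.85. That difference of -0.60 missed the threshold (adjusted p = 0.0654) and passed it under 4 of 14 alternatives, among them the fit without Atg5f/f;Vav replicate 2 (-0.77, adjusted p = 0.0446), while without Atg5f/f;Vav replicate 3 it was -0.37 (adjusted p = 0.0797). Map1lc3a, the LC3 isoform with a single probe, read -2.23, -2.18 and -2.00 in control and -1.97, -2.09 and -2.83 in Atg5f/f;Vav samples. The groups overlapped, with the lowest value on Atg5f/f;Vav replicate 3 (difference -0.16, 95% interval -0.71 to 0.39, adjusted p = 0.605).

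The GABARAP genes, which encode the second branch of the family, act late in autophagosome formation and closure. Gabarap read 4.17, 3.98 and 4.18 in control and 4.34, 4.41 and 4.22 in Atg5f/f;Vav samples. The ranges were close but did not overlap, and the difference of 0.21 did not pass (95% interval -0.065 to 0.48, adjusted p = 0.19). Its dimmer probe A_55_P2000718 differed by 0.36 (adjusted p = 0.119), from 0.15 with the percentile over probes detected on all arrays and 0.20 without control replicate 2 to 0.67 after quantile normalisation, where it passed (adjusted p = 0.0356). A further probe was well above background on 2 of the 6 arrays and was not tested. Gabarapl1 read 5.11, 5.14 and 5.22 in control and 5.17, 5.18 and 5.15 in Atg5f/f;Vav samples. All Atg5f/f;Vav values fell within the control range, and the 95% interval of the difference ran from -0.23 to 0.24 (adjusted p = 0.967). After quantile normalisation of the arrays the same probe was lower by 0.35 (adjusted p = 0.0394). Gabarapl2 (GATE-16) read 2.41, 2.31 and 2.56 in control and 2.57, 2.39 and 2.21 in Atg5f/f;Vav samples, and the groups overlapped (difference -0.04, adjusted p = 0.831). Its second probe on the same transcript differed by 0.02 (adjusted p = 0.885) and its probe on a separate cDNA by -0.50 (adjusted p = 0.15), while its last probe was well above background on no array. The cDNA probe passed without control replicate 3 (-0.76, adjusted p = 0.0384), and was -0.34 without control replicate 1 (adjusted p = 0.38) and -0.21 after quantile normalisation (adjusted p = 0.484).

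Among the receptors, Sqstm1 encodes p62, which gathers ubiquitinated proteins and binds Keap1, the inhibitor of the transcription factor Nrf2. Its brightest probe, near the end of the transcript, read 3.08, 3.11 and 3.19 in control and 3.17, 3.27 and 3.45 in Atg5f/f;Vav samples. The lowest Atg5f/f;Vav value lay within the control range, and the difference of 0.17 did not pass (SE 0.12, 95% interval -0.10 to 0.44, adjusted p = 0.274). At this probe it was 0.096 without Atg5f/f;Vav replicate 3 (adjusted p = 0.503) and 0.23 without Atg5f/f;Vav replicate 1 (adjusted p = 0.189). The probe printed above, A_55_P2069714, read -0.79, -0.59 and -0.56 in control and -0.06, -0.36 and -0.13 in Atg5f/f;Vav samples. There the groups did not overlap and the signal was 1.38-fold higher (log2 difference 0.46, SE 0.13, adjusted p = 0.0358). That call was lost when any array other than Atg5f/f;Vav replicate 2 was left out: adjusted p = 0.132, 0.0963 and 0.0584 without control replicates 1, 2 and 3, and 0.0786 and 0.0621 without Atg5f/f;Vav replicates 1 and 3. It was also lost with the replicate number as a block (adjusted p = 0.0667) and with a percentile taken over probes detected on all arrays (0.25, adjusted p = 0.138). The third Sqstm1 probe, A_66_P110606, differed by -0.34 with overlapping groups (adjusted p = 0.184). It was -0.145 without control replicate 1 (adjusted p = 0.503), -0.019 after quantile normalisation (adjusted p = 0.941) and -0.54 with the percentile over probes detected on all arrays (adjusted p = 0.0563).

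Nbr1 encodes a receptor with the same domain plan as p62, to which it binds. Its brightest probe read -2.33, -2.63 and -2.33 in control and -2.43, -2.05 and -2.76 in Atg5f/f;Vav samples, and the groups overlapped (difference 0.02, 95% interval -0.45 to 0.49, adjusted p = 0.954). The probe printed above, near the 5′ end, read -3.32, -3.65 and -3.55 in control and -4.26, -4.19 and -4.54 in Atg5f/f;Vav samples. All Atg5f/f;Vav arrays were below all controls, and this probe fell by 0.82 on the log2 scale (SE 0.15, adjusted p = 0.0158). It was dim, well above background on 3 of 3 control and 2 of 3 Atg5f/f;Vav arrays, and its adjusted p was 0.0673 without control replicate 1 and 0.0683 without control replicate 2. The fall was smaller with normexp background correction (-0.32, adjusted p = 0.0468) and after quantile normalisation (-0.49, adjusted p = 0.0381). The last Nbr1 probe, A_55_P2627361, was well above background on no array and was not tested.

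**Figure D2:**
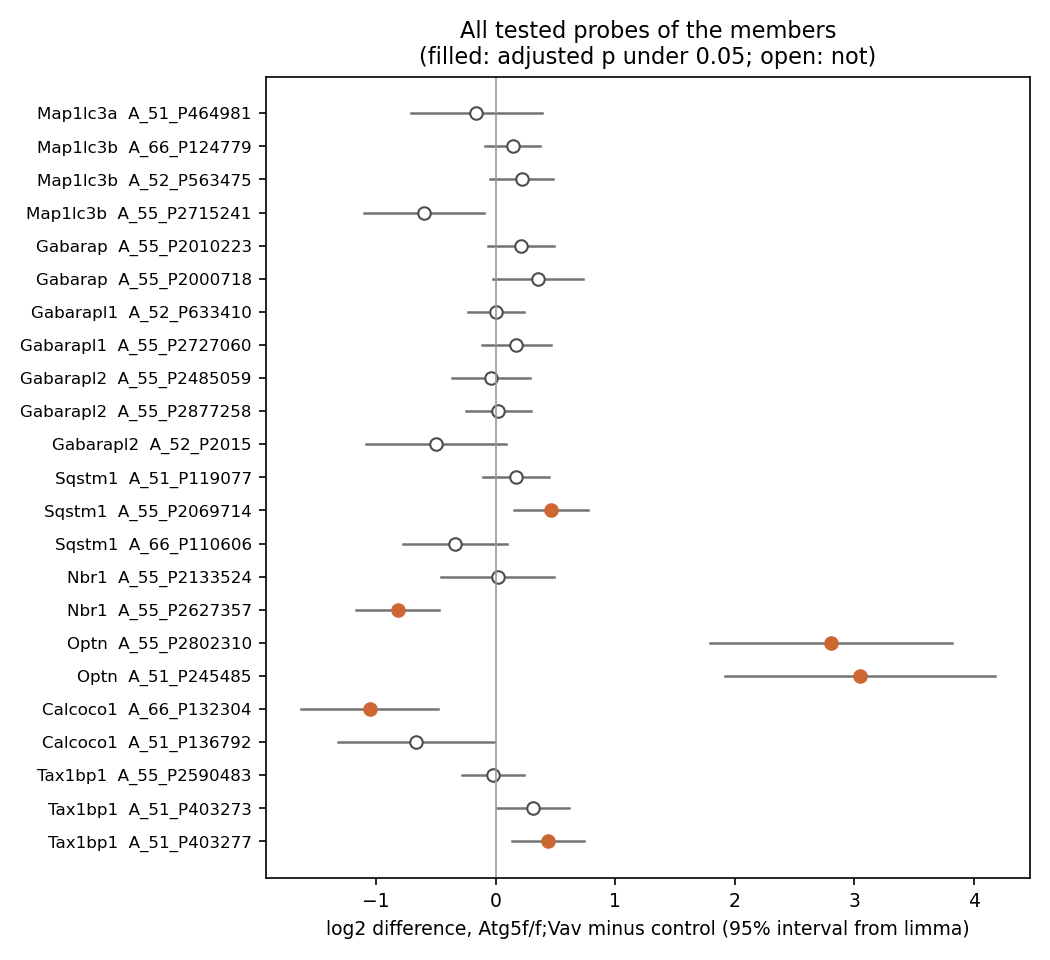
Log2 difference (Atg5f/f;Vav minus control) of each of the 23 tested member probes with its 95% interval from limma, 3 arrays per group; filled points passed an adjusted p of 0.05. Both Optn probes lie far to the right, at 2.80 and 3.05. The probes of Sqstm1 include values on either side of 0, and the brightest probes of Nbr1 and Tax1bp1 lie close to 0, at 0.02 and -0.02.

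Optn encodes optineurin, a receptor for ubiquitinated mitochondria, bacteria and protein aggregates that the kinase Tbk1 phosphorylates. Its brightest probe, A_55_P2802310 at chr2:4941834-4941893, read -2.79, -3.03 and -2.72 in control samples and -0.95, -0.11 and 0.92 in Atg5f/f;Vav samples. The controls lay close together, while the Atg5f/f;Vav arrays were all above them and spread widely, with replicate 3 highest and replicate 1 lowest. The mean rose from -2.85 ± 0.16 to -0.04 ± 0.94 (SD, n = 3 arrays each), a 6.98-fold difference with a 95% interval of 3.45 to 14.1 (log2 difference 2.80, SE 0.43, adjusted p = 0.0145). Of all 20778 genes, 62 had a higher log2 difference.

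The second Optn probe, printed above, read -4.58, -4.75 and -4.91 in control and -2.70, -1.78 and -0.61 in Atg5f/f;Vav samples. The arrays stood in the same order in the Atg5f/f;Vav group, again above all controls. The signal was 8.27-fold higher (log2 difference 3.05, SE 0.48, adjusted p = 0.0145). With normexp background correction its log2 difference was 1.63 (adjusted p = 0.00676). The log2 difference of the brightest probe minus that of this one was -0.25 (exact permutation test, 2-sided, p = 0.2), and 3 arrays against 3 cannot give a p under 0.1. The brightest Optn probe stayed positive in all 14 alternatives, between 2.21 and 3.25. Without control replicate 1 or 2 the difference was 2.83 and 2.71, with adjusted p = 0.0628 and 0.0686. Of the non-control spots, 59.9%, 59.4% and 59.9% were well above background in control and 56.7%, 55.8% and 53.6% in Atg5f/f;Vav samples, lower in that group and lowest where Optn was highest. The part of this lower detection in the results was not tested.

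Calcoco1 encodes a receptor for the endoplasmic reticulum and Golgi that is related to NDP52 and Tax1bp1. Its brightest probe, A_66_P132304 at chr15:102538050-102538109, is listed on a separate cDNA. It read -1.96, -1.77 and -1.84 in control and -2.64, -2.60 and -3.48 in Atg5f/f;Vav samples. All Atg5f/f;Vav arrays were below all controls, and replicate 3 was lowest. The mean dropped by 1.05 on the log2 scale (SE 0.24, 95% interval -1.63 to -0.48, adjusted p = 0.0215), so that the control signal was 2.08-fold higher. With normexp background correction the log2 difference was -0.66 (adjusted p = 0.00499). The adjusted p was 0.0699, 0.0821 and 0.0521 when control replicate 1, 2 or 3 was left out, at differences between -1.11 and -1.01. The other probe, on the RefSeq transcript, read -2.18, -2.27 and -2.50 in control and -2.42, -2.96 and -3.55 in Atg5f/f;Vav samples. Its groups overlapped at Atg5f/f;Vav replicate 1, and the difference of -0.67 did not pass (adjusted p = 0.0985). It passed without that array (-0.94, adjusted p = 0.0259), and was -0.38 without Atg5f/f;Vav replicate 3 (adjusted p = 0.17), -0.37 with normexp background correction (adjusted p = 0.0589) and -0.41 after quantile normalisation (adjusted p = 0.26).

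**Figure D3:**
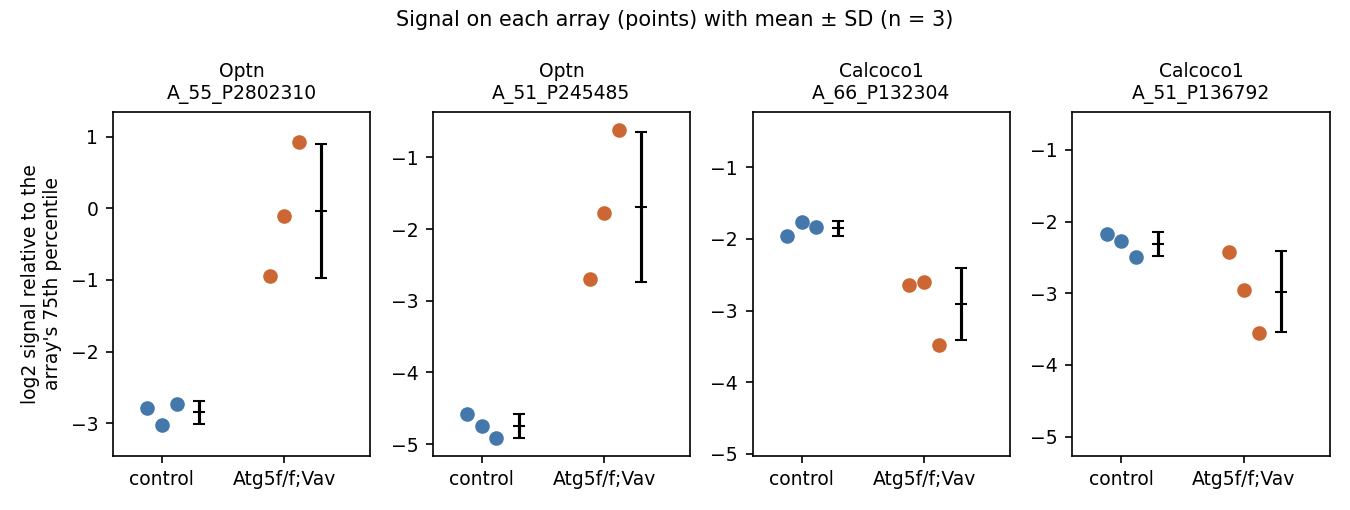
Log2 signal relative to the array's 75th percentile at both probes of Optn and of Calcoco1; points are single arrays, bars are mean ± SD (n = 3), and each panel spans the same range on the log2 scale. The Optn values of the Atg5f/f;Vav arrays spread over about the same width at both probes, and for Calcoco1 A_51_P136792 the groups overlap.

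Tax1bp1 encodes a receptor for ubiquitinated aggregates and bacteria that also restrains inflammatory signalling. Its brightest probe, near the 5′ end, read 2.46, 2.36 and 2.48 in control and 2.43, 2.50 and 2.30 in Atg5f/f;Vav samples, and the groups overlapped (difference -0.02, adjusted p = 0.896). The probe printed above, A_51_P403277, read 0.78, 0.63 and 0.88 in control and 1.36, 1.09 and 1.16 in Atg5f/f;Vav samples. All Atg5f/f;Vav arrays were above all controls there, by 0.44 (SE 0.13, adjusted p = 0.0378). This call was lost without control replicate 1, 2 or 3 (adjusted p = 0.112, 0.131 and 0.0521), without Atg5f/f;Vav replicate 1 or 2 (0.0814 and 0.0581), after quantile normalisation (0.0666) and with the percentile over probes detected on all arrays (0.23, adjusted p = 0.153). A neighbouring probe, A_51_P403273, differed by 0.31 without overlap and did not pass (adjusted p = 0.0948; 0.11 to 0.39 over 14 alternatives), and the last one was well above background on no array.

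The unequal changes at probes of Map1lc3b, Sqstm1, Nbr1 and Tax1bp1 were tested directly, as the difference between probes on each array. Among 17 pairs of probes, Nbr1 had the largest gap in the main fit, with its 2 tested probes apart by 0.84 in their log2 differences. This rank did not hold with normexp background correction. There the Nbr1 probes were at 0.04 and -0.32, and Map1lc3b A_52_P563475 and A_55_P2715241 further apart at 0.20 and -0.51. The smallest p that 3 arrays against 3 allow is 0.1 (exact permutation test, 2-sided), so no pair could pass 0.05. Of the 17 pairs, 11 were at that smallest p (0.155 adjusted over the pairs), with the groups fully apart. The groups also did not overlap at 55.4% of all single probes. The share among probe pairs of other genes was not computed, so this count is not a result about the members. For Nbr1 the brightest probe minus the other tested one was 0.99 to 1.23 in control and 1.78 to 2.14 in Atg5f/f;Vav samples.

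The other genes of the pathway were counted by role with the same fit. Of 67 tested, 16 were higher, 5 were lower and the median log2 difference was 0.00; this is 31.3% called, against 34.1% of all genes. With the percentile over probes detected on all arrays, which moved the median of all probes by -0.21, the split was 7 higher and 18 lower. The 16 of these genes given with a value, Atg5 included, kept their direction in all 14 alternatives. Without control replicate 1 or 2, none of the 67 passed.

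Of 16 further cargo receptors tested, 4 were higher and none lower, but with the percentile over probes detected on all arrays 4 were higher and 4 lower. Phb2, an inner mitochondrial membrane protein that binds LC3, read 3.12, 3.07 and 3.29 in control and 3.98, 4.04 and 4.48 in Atg5f/f;Vav samples, without overlap (difference 1.01, adjusted p = 0.0147). Bcl2l13, a receptor of the outer mitochondrial membrane, was higher by 0.97 (adjusted p = 0.0244, and 0.0576 without control replicate 3). Nufip1, which binds ribosomes, was higher by 0.70 (adjusted p = 0.0209), and Fkbp8, another mitochondrial receptor, was also higher. Calcoco2 (NDP52) was well above background on no array. Of the 11 genes of the conjugation machinery, which attaches the Atg8 proteins to the membrane, Atg5 alone passed, and with the percentile over probes detected on all arrays 1 was higher and 5 lower.

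Initiation and membrane supply divided evenly, with 4 of 19 genes higher and 4 lower, and 1 higher and 7 lower with the percentile over probes detected on all arrays. Nrbf2, Pik3c3 and Becn1, which belong to the class III phosphatidylinositol 3-kinase complex, were higher by 0.66, 0.49 and 0.48 (adjusted p = 0.0254, 0.0411 and 0.0274). With that percentile Pik3c3 and Becn1 no longer passed (0.28 and 0.27, adjusted p = 0.14 and 0.106). Pik3c3 also lost its call with the replicate number as a block (adjusted p = 0.075) and without Atg5f/f;Vav replicate 1, 2 or 3 (0.0892, 0.0525 and 0.0606). Leaving out control replicate 3 gave an adjusted p of 0.0501 for Nrbf2 and 0.0673 for Becn1, and leaving out Atg5f/f;Vav replicate 1 gave 0.0563 for Becn1. Atg14, a further subunit of that complex, fell by 0.44, Rb1cc1 (FIP200, of the Ulk1 complex) fell by 0.52, and Atg9a, the transmembrane protein of the vesicles that seed the membrane, fell by 0.88 (adjusted p = 0.0316, 0.0255 and 0.0089). Atg9a read -0.29, -0.30 and -0.35 in control and -1.27, -1.12 and -1.20 in Atg5f/f;Vav samples, with little spread in either group. The call of Atg14 was lost without control replicate 3 or Atg5f/f;Vav replicate 2 (adjusted p = 0.0655 and 0.0685).

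Of 13 genes for fusion with lysosomes, 5 were higher and none lower, led by the SNARE Ykt6, the GTPase Rab7 and the SNARE Vamp8 (0.50, 0.49 and 0.48; adjusted p = 0.0297, 0.027 and 0.0212). With the percentile over probes detected on all arrays none of the 13 passed, and these 3 genes were at 0.30, 0.28 and 0.28 (adjusted p = 0.0846, 0.0723 and 0.0643). After quantile normalisation 3 of the 13 were higher, and Rab7 (0.32, adjusted p = 0.0606) and Vamp8 (0.21, adjusted p = 0.152) did not pass. Ykt6 also lost its call without Atg5f/f;Vav replicate 1 (adjusted p = 0.0638), and Rab7 without control replicate 3 or Atg5f/f;Vav replicate 2 (0.0531 and 0.0553). Of 8 regulators, Tfe3, a transcription factor of lysosomal and autophagy genes, was higher by 0.95 and Keap1 by 0.51, and Foxo3, a forkhead factor that drives autophagy genes in haematopoietic stem cells, fell by 0.57 (adjusted p = 0.0183, 0.0272 and 0.0189). Keap1 did not pass after quantile normalisation (0.26, adjusted p = 0.133), with the percentile over probes detected on all arrays (0.31, adjusted p = 0.0801), or without control replicate 3 or Atg5f/f;Vav replicate 2 (adjusted p = 0.0656 and 0.0619).

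**Figure D4:**
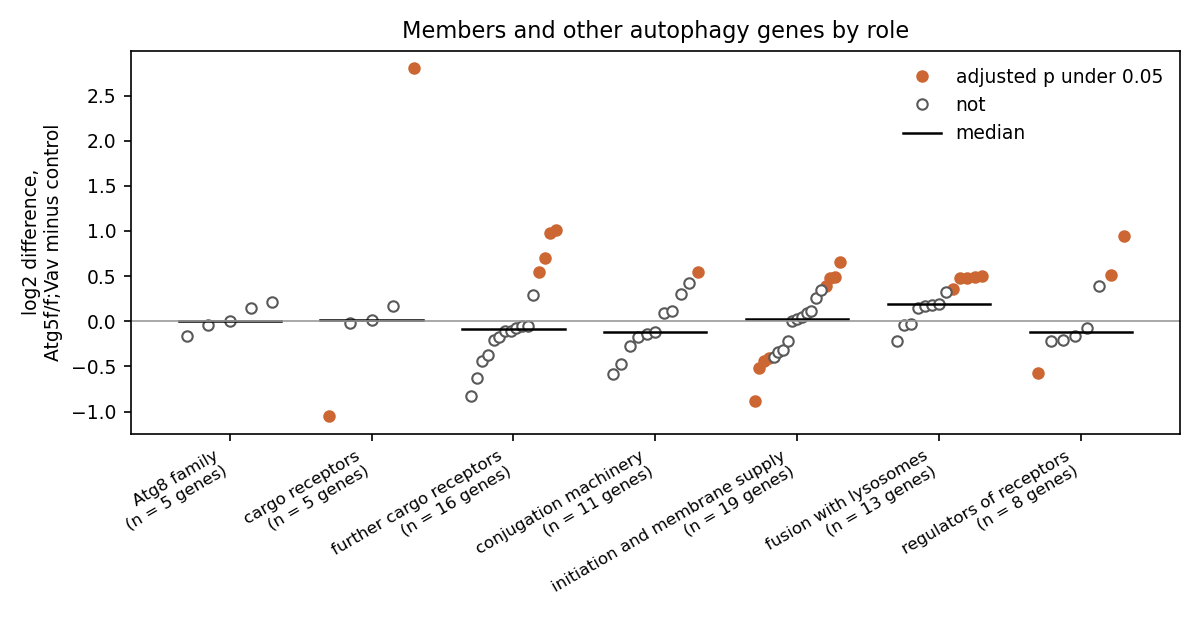
Log2 difference (Atg5f/f;Vav minus control, 3 arrays each) of the members and the other autophagy genes, grouped by role; each point is 1 gene by its brightest probe, filled where the adjusted p was under 0.05, and lines are medians. The receptors Optn and Calcoco1 lie beyond every other gene drawn, at 2.80 and -1.05, and the Atg8 family lies close to 0.

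Markers of other cell types were counted in the same way, against 34.1% called over all genes. A sum over a list adds the linear signal of its probes and gives no order of transcript amounts between genes. Of 10 erythroid markers, 5 were higher (Gata1, Klf1, Epor, Tfrc and Car1), 3 lower (Alas2, Hba-a1 and Hbb-b1), and all 10 were well above background on every array. The median of the list was 0.80, 0.45 and 0.31 in control and 1.60, 2.35 and 3.21 in Atg5f/f;Vav samples, where it followed the order of Optn. Its summed linear signal, in which the Hba-a1 probe was brightest, was 520.3, 493.4 and 235.8 in control and 100.6, 139.5 and 169.1 in Atg5f/f;Vav samples. Of 10 LSK markers, Ly6a was higher and Procr, Mecom and Hlf, genes of haematopoietic stem cells, were lower. Their summed signal, in which the Cd34 probe was brightest, was 152.2, 158.2 and 160.8 in control and 159.1, 129.7 and 95.8 in Atg5f/f;Vav samples, lowest on the array with the highest Optn. The part of these cell type markers in the results for Optn, Calcoco1 and the other members was not tested.

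Of 9 neutrophil markers, 3 were higher (Mpo, Prtn3 and Ctsg) and 5 lower. The Mpo probe was brightest by its mean over the 6 arrays, though not on control replicate 1, where S100a9 read 6.56 and Mpo 5.95. The summed signal was 233.8, 180.8 and 298.7 in control and 303.0, 244.0 and 296.7 in Atg5f/f;Vav samples. Of 5 megakaryocyte markers, 2 were higher and 2 lower, with the Gp9 probe brightest and sums between 5.77 and 7.47. Ppbp, among the lower ones, was well above background on 3 of 3 control and 0 of 3 Atg5f/f;Vav arrays. It entered the test through the control arrays alone, so the size of its fall is not a measure of RNA. Of 6 stromal markers tested, 3 were lower (Col1a1, Col1a2 and Sparc), with sums of 10.2, 40.7 and 30.6 in control and 6.84, 9.61 and 9.51 in Atg5f/f;Vav samples. Col1a1 likewise entered the test through the control arrays alone, well above background on 3 of 3 control and 0 of 3 Atg5f/f;Vav arrays. The Lepr probe was brightest by its mean over the 6 arrays, though not on control replicates 2 and 3, and Col3a1 was well above background on no array. Of 5 B cell markers (brightest probe Cd79b), 1 was higher, which was Cd79a (difference 0.95, adjusted p = 0.0227). Cd79a was well above background on 1 of 3 control and 3 of 3 Atg5f/f;Vav arrays. Of the remaining lists, 1 of 5 mast cell and basophil markers was lower (brightest probe Prg2), and none of 4 macrophage (brightest probe Csf1r) or 2 T and NK cell markers (brightest probe Cd4) passed. Mrc1, Cd3g, Cd8a and Ncr1, which mark macrophages, T cells and NK cells, were well above background on no array.

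The genes whose brightest probe followed that of Sqstm1 most closely over the 6 arrays were Mbnl1 (Pearson r = 0.998), a transcript that the array lists only by its position (0.997), Arrdc2 (0.997), Papd5 (0.993) and Mob1b (0.993), out of 20778 genes. These values describe 6 arrays in 2 groups on 1 slide. The genes were picked as those with the highest r among 20778, and no link to Sqstm1 was tested. The Sqstm1 probe used did not pass, and the other Sqstm1 probes were not compared in this way.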

How the data were processed

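The authors deposited 1 scanner intensity per spot for each of 6 arrays, from which Agilent Feature Extraction (version 12.0.3.1) had removed background and spatial trend. They also deposited a normalised signal, each intensity divided by its array's 75th percentile over all 62976 spots. Here, log2 intensity was taken minus the array's 75th percentile among 59305 non-control spots (656.8, 651.7 and 746.2 in control and 881.4, 698.4 and 620.3 in Atg5f/f;Vav samples). Between 64 and 81 spots per array carried an outlier flag and were dropped, no spot was saturated, and spots of a probe were averaged. The share of non-control spots well above background was 59.9%, 59.4% and 59.9% in control and 56.7%, 55.8% and 53.6% in Atg5f/f;Vav samples, and the number of arrays limits the precision. Probes well above background on at least 3 arrays entered limma (version 3.58.1, R version 4.3.3; functions lmFit and eBayes, 2-sided; Benjamini-Hochberg adjustment over 32074 probes; threshold 0.05), after a test on simulated data. Groups followed the sample labels. A gene was represented by its brightest probe.

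The members and lists were chosen with earlier results of these data known. Named were all members, from each other autophagy list the 3 largest rises and falls that passed, Atg5, of each marker list the gene with the brightest probe and those well above background on no array, and the 5 genes most like Sqstm1 by Pearson r. Further markers that changed, Col1a1, Pdgfrb, Cxcl12 and Fkbp8 were named after their values were seen. Tried as alternatives were quantile normalisation, normexp background correction (offset 50), other percentile and filter choices, the deposited signal, the methods' t-test, averaging the probes of a gene, the replicate number as a block and each array left out. A slide block could not be fitted, since all arrays shared 1 slide and 1 scan. Retreg1 and Emr1 were not matched by symbol, but the lists also held their other names, Fam134b and Adgre1, which were matched and tested.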

Additional observations from a re-analysis of the deposited data

How the results depend on the processing

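Of the 23 tested member probes, 13 kept their direction under all alternatives run, both probes of Optn and of Calcoco1 among them. The members past the threshold numbered 2, and 1 without a filter on dim probes (Optn), 0 by the methods' t-test (3 at an unadjusted p under 0.05) and 0 to 2 when 1 array was left out (0 without control replicate 1 or 2, and 1 without control replicate 3). Over all probes the 11024 calls became 4538 without the filter, 0 by the methods' t-test (13541 unadjusted) and 251 to 10304 when 1 array was left out. Of the other autophagy genes, 21 passed, and 3 without the filter, 0 by the methods' t-test (30 unadjusted) and 0 to 19 when 1 array was left out. Some counts rose. With normexp background correction 11517 probes and 29 other autophagy genes passed. With the percentile over probes detected on all arrays these counts were 13459 and 25. With only probes detected on all 6 arrays, 25 other autophagy genes passed. After quantile normalisation 3 members passed, 1 higher and 2 lower. The cause was not tested, except that no filter adds dim probes to the adjustment and leaving out an array removes a sample.

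Quantile normalisation turned the sign for Map1lc3a (0.0443), Map1lc3b (-0.17), Gabarap (-0.12), Gabarapl1 (-0.35), Gabarapl2 A_55_P2877258 (-0.15) and Sqstm1 (-0.11). The percentile over probes detected on all arrays, which shifted all probes alike by -0.21, turned it for Map1lc3b (-0.0646), Gabarapl1 (-0.20, and -0.0336 at its second probe), Gabarapl2 A_55_P2877258 (-0.18), Sqstm1 (-0.0356) and Nbr1 (-0.19). The deposited values turned it for Tax1bp1 (0.0014). These are differences of the probe with the highest signal unless another is named, and only that of Gabarapl1 after quantile normalisation passed (adjusted p = 0.0394). Leaving out 1 array gave -0.32 to 0.10 for Map1lc3a, -0.0157 to 0.0384 for Gabarapl1 A_52_P633410, -0.13 to 0.0519 and -0.0443 to 0.0608 for Gabarapl2 A_55_P2485059 and A_55_P2877258, -0.17 to 0.19 for Nbr1 A_55_P2133524 and -0.0672 to 0.0369 for Tax1bp1 A_55_P2590483.

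Same-numbered samples of the groups correlated at -0.07, 0.19 and 0.11 in their deviations from the group means, so the numbers were not taken as pairs. With the replicate block, 10173 probes, 2 members and 18 other autophagy genes passed. The number of arrays limits the precision, and Nbr1 A_55_P2627357, which passed, was not well above background on 1 of the 3 Atg5f/f;Vav arrays.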
